A study of Mus musculus with 48 samples.

Results

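Expression of 10 immediate early genes was examined in the liver of male Wfs1 mutant and wild type mice after chronic valproic acid (VPA) or saline. The genes were Fos, Fosb, Jun, Junb, Jund, Egr1, Atf3, Ier2, Ier3 and Klf6. They were found by their symbol in the annotation of the array, and each of the 10 genes was represented by 1 probeset among 35556 measured. Each probeset is a set of probes that together give 1 value per gene, and 21789 of the probesets carry a single gene symbol. None of the 10 was removed by a filter on low values.

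Wfs1 encodes wolframin, which spans the membrane of the endoplasmic reticulum. The 3 genotypes compared were wild type (WT, Wfs1 +/+), heterozygous (HZ, Wfs1 +/-) and homozygous mutant (KO, Wfs1 -/-) mice, each with 8 saline and 8 VPA mice, 48 in all. VPA, an antiepileptic drug that also inhibits histone deacetylases, was injected intraperitoneally at 300 mg/kg per day for 12 weeks, starting at 4 to 6 weeks of age, and control mice received saline at 10 mL/kg. All mice, controls included, underwent a glucose tolerance test with 2 g/kg of glucose 24 hours after the last injection and were killed another 24 hours later, at 16 to 18 weeks of age. The measured state was therefore that of the liver 48 hours after the last dose. The mutation removes only part of the exons of Wfs1, which limits the array as a check of the genotype: the whole-gene signal of Wfs1 was 8.43 ± 0.10 in WT and 8.28 ± 0.12 in KO saline mice (log2 scale, mean ± SD, n = 8).

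Immediate early genes are transcribed within minutes of a stimulus, without new protein synthesis, when growth factors, cytokines, stress or calcium activate kinases that act on transcription factors already bound to their promoters. Most of their products are themselves transcription factors or regulators with short-lived mRNA, so that their level at any moment reflects recent signaling. In the liver they are known for their response to partial hepatectomy, injury, feeding and hormones, and also for their sensitivity to handling and to tissue removal.

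On the deposited log2 scale, 1 unit is a factor of 2 in signal, the values of all probesets ran from 2.12 to 14.8 and the array medians from 6.90 to 7.03. Every pair of arrays correlated with r between 0.971 and 0.994. The 7 measured hepatocyte markers, among them Alb and Apoa1, had mean levels from 11.5 to 14.4, which matches the label of liver. Clock genes and markers of other cell types moved with treatment. Of 10 clock genes that peak together with Dbp and Per2, 10 were lower with VPA and 7 higher in KO than in WT mice. Within saline none of the 10 passed in KO against WT mice and within VPA 5 did, beside 0.79% and 0.405% of all probesets. With VPA 4 passed in WT, 9 in HZ and none in KO mice, beside 0.0703%, 10.5% and 0.0112%. The interaction of genotype and treatment passed for Dbp, Per3 and Nr1d2 of the 10, beside 0.0816% of all probesets. Of 12 markers of Kupffer cells, the macrophages of the liver, 7 were higher with VPA and none passed in KO against WT mice. The shares of all probesets were 8.61% with VPA and 2.94% in KO against WT mice. Within genotypes 9 of the 12 markers passed with VPA in HZ mice, beside 10.5% of all probesets. None passed in WT or KO mice, where only 0.0703% and 0.0112% of all probesets did. With so few probesets called there, these counts do not show that the genotypes differed. The median VPA differences of the 12 markers were 0.75 in HZ, 0.17 in WT and 0.15 in KO mice. In HZ against WT saline mice their median was -0.42, with none called. In bulk tissue, fewer cells of a type and less RNA per cell cannot be told apart. The arrays also carry running numbers whose meaning the labels do not give. They ran in a separate block for each of the 6 groups. In saline mice they were 5 to 12 in WT, 14 to 21 in HZ and 23 to 30 in KO. In VPA mice they were 59 to 66 in WT, 68 to 75 in HZ and 77 to 84 in KO. An order of handling therefore cannot be told apart from the treatment, nor from the genotype within a treatment. KO saline replicate 8 had the highest value of all 48 mice for Fos, Fosb, Jun and Atf3, and member differences that leaving it out moved by over 1.5 times are given without it as well.

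Promoter sequences, 250 bases before the annotated start in RefSeq (build GRCm38.p6), were examined for 8 of the 10 genes. Those of Egr1 and Ier2 were not examined, so the motif results below say nothing about these genes. Fos is shown as the standard example of a gene switched on by signaling, and Klf6 as the member that differed between genotypes. In the Fos promoter, chr12:85473640-85473889 on the plus strand, capitals mark TGACG, the core of the site bound by CREB and ATF factors, and the TATA element TATAAA. In the Klf6 promoter, chr13:5861239-5861488 on the plus strand, capitals mark CACGTG, the E-box recognised by basic helix-loop-helix factors such as CLOCK with BMAL1, USF and MYC.
Fos: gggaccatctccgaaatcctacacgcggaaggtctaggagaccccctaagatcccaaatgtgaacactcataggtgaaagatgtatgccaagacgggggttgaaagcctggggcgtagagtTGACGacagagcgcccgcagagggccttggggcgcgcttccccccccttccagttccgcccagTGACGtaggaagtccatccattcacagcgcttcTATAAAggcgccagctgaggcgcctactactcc
Klf6: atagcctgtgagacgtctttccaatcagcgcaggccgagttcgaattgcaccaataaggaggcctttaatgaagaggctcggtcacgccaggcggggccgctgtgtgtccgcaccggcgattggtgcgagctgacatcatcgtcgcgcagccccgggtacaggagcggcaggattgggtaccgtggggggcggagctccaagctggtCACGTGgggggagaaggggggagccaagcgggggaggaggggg
The motif TGACG, searched on both strands, stood 129 to 125 and 66 to 62 bases before the start of Fos, and TATAAA 33 to 28 bases before it. TGACG was present in 4 of the 8 promoters, those of Fos, Fosb, Junb and Atf3, and in 17.8% of 32851 promoters of the same length. TATAAA was found in Fos and in none of the other 7, against 12.4% of all promoters. The E-box of Klf6 lay 43 to 38 bases before its start, no other of the 8 promoters held one, and 6.02% of all promoters did. The GC-rich site bound by EGR1, GCGNGGGCG, occurred in Fosb alone, at 50 to 42 bases before the start, and in 4.7% of all promoters. Neither the full CRE TGACGTCA, which contains TGACG, nor the AP-1 site TGANTCA, nor the CArG box bound by SRF occurred in any of the 8 windows, against 1.55%, 6.75% and 1.47% of all promoters. These matches describe letters in this window and not bound sites. Sequence further upstream was not examined, so a motif absent here may still occur outside the window.

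Of the 10 genes, 2 passed the test in a main comparison. Egr1 was higher with VPA, by 1.79-fold over the 3 genotypes, and Klf6 was higher in KO than in WT mice, by 1.19-fold. The other 8 genes passed in no comparison of treatments or genotypes. Each difference was tested with limma over all 48 arrays, with p-values adjusted over 35556 probesets and an adjusted p under 0.05 as the threshold. For VPA against saline 1 of 10 members was called, beside 8.61% of all probesets. In KO against WT mice it was 1 of 10 beside 2.94%, and in HZ against WT mice 0 of 10 beside 0.00281%. In the last comparison no member had an unadjusted p under 0.05 either, against 5.4% of all probesets, and the ordinary linear model called none as well. HZ against WT mice within saline and within VPA also called 0 of 10 with limma, beside 0.304% and 0.00281%, with 1 member each at an unadjusted p under 0.05 (Ier2 in saline and Egr1 in VPA mice) beside 10.7% and 2.88%. No member was called in the interaction of genotype and treatment, beside 0.0816%, and none had an unadjusted p under 0.05 there, beside 7.89%.

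**Figure D1:**
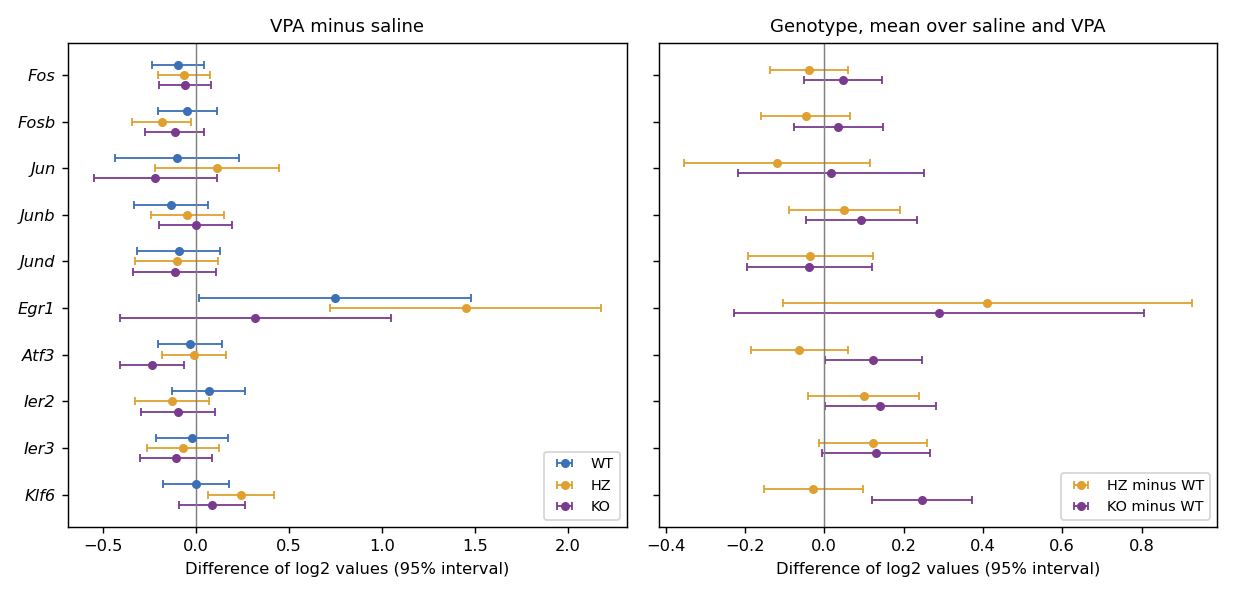
Differences of log2 values with 95% intervals for the 10 genes. The left panel shows VPA minus saline within WT, HZ and KO mice and the right panel shows HZ minus WT and KO minus WT over both treatments. The Egr1 difference in HZ mice, 1.45, lies far to the right of the others on the left, and on the right the Klf6 interval for KO minus WT runs from 0.12 to 0.37 while that for HZ minus WT includes 0.

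Egr1, on chromosome 18 (34861207 to 34864956, GRCm38.p6), encodes a zinc finger transcription factor induced by growth factors, insulin and stress. In saline mice its log2 values had a minimum, median and maximum of 7.21, 7.46 and 8.61 in WT, 6.90, 7.47 and 8.60 in HZ and 7.13, 7.96 and 9.44 in KO mice. With VPA they were 7.33, 8.37 and 9.59 in WT, 8.32, 9.27 and 10.20 in HZ and 7.22, 8.69 and 9.87 in KO mice. The VPA mice reached higher in each genotype, but in WT and KO mice the lowest VPA mice lay among the saline mice, whereas in HZ mice only a narrow band was shared.

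Over the 3 genotypes Egr1 was 0.84 higher with VPA on the log2 scale (SE 0.21, 95% interval 0.42 to 1.26, limma adjusted p = 0.00852), with 19 of 24 VPA mice higher than the saline mean for that genotype. The difference was 1.45 in HZ mice (SE 0.36, 2.73-fold, adjusted p = 0.00877), where 8 of 8 VPA mice were higher than the saline mean and 6 of 8 higher than every saline mouse. In HZ mice 1 of 10 members was called, beside 10.5% of all probesets. In WT mice the difference of Egr1 was 0.75 (SE 0.36, adjusted p = 0.894), with 6 of 8 mice above the saline mean. In KO mice it was 0.32 (SE 0.36, adjusted p = 0.922), with 5 of 8 mice above, and ran from 0.12 without KO VPA replicate 3 to 0.51 without KO saline replicate 2. No member passed in WT or in KO mice, where 0.0703% and 0.0112% of all probesets did. In each of them 1 member, Egr1 in WT and Atf3 in KO mice, had an unadjusted p under 0.05, beside 5.55% and 7.16% of all probesets. The size of the VPA difference was not shown to differ among genotypes: the VPA difference in HZ minus that in WT mice was 0.70 (SE 0.51, adjusted p = 0.714), that in KO minus that in HZ mice was -1.13 (SE 0.51, adjusted p = 0.401), and the interaction of Egr1 had an adjusted p of 0.700.

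Ordered by mean, Egr1 was lowest in WT saline mice (7.61 ± 0.49), followed by HZ saline (7.67 ± 0.61), KO saline (8.12 ± 0.92), WT VPA (8.36 ± 0.77), KO VPA (8.44 ± 1.00) and HZ VPA mice (9.12 ± 0.60, mean ± SD, n = 8 each). No neighbours in this order were further apart than the larger of their SDs. Genotype alone gave 0.29 for KO against WT (SE 0.26, adjusted p = 0.726) and 0.41 for HZ against WT mice (SE 0.26, adjusted p = 0.966). Egr1 was the most variable of the 10 genes: its values spanned a 9.87-fold range over the 48 mice, and its SD within groups, 0.753, was above that of 99.4% of all probesets, whose median SD was 0.177.

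**Figure D2:**
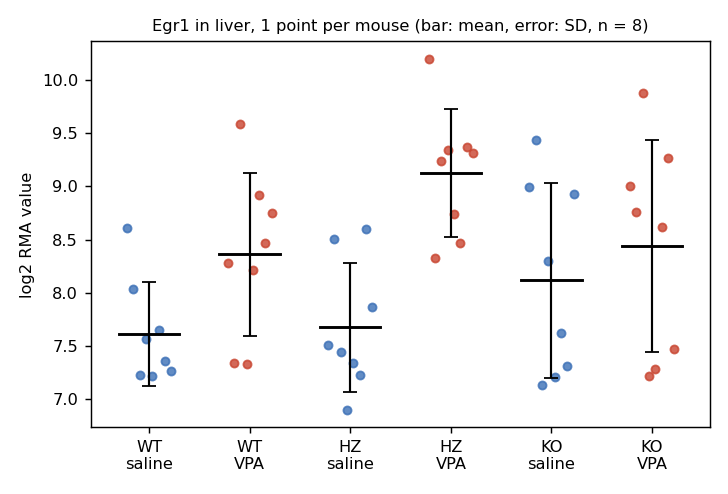
Egr1 log2 RMA value of each mouse, 1 point per mouse, with saline in blue and VPA in red, bars at the mean and error bars of 1 SD (n = 8). In HZ mice the VPA points start at 8.32 and the saline points end at 8.60, whereas WT and KO points overlap over most of their range.

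The call of Egr1 held with each of the 48 arrays left out in turn, with a difference between 0.77 and 0.90. Clock phase differed between the treatments as well, most in HZ and least in KO mice. An index of clock phase was the mean over 14 clock genes of standardised values signed by their peak. It ran from -1.50 to -0.75 in HZ saline and from 0.44 to 1.24 in HZ VPA mice, without overlap. In WT mice it ran from -0.75 to 0.66 with saline and from 0.65 to 1.59 with VPA. In KO mice the ranges overlapped widely, at -0.95 to 0.11 and -0.75 to 0.44. The saline and VPA means were -1.11 and 0.90 in HZ, -0.24 and 1.07 in WT and -0.52 and -0.10 in KO mice. With the index as a covariate the Egr1 difference stayed at 0.84 while its SE rose to 0.43, and the adjusted p was 0.809. In HZ mice it was 1.45 with an SE of 0.71 and an adjusted p of 0.691. The fit takes its slope on the index from within the groups, so the unchanged difference restates the within-group r given next. Since the index moved with treatment, this fit cannot separate clock phase from treatment, and the part of clock phase was not tested. Within groups Egr1 did not follow the index, with Pearson's r of 4.12e-06 over 48 mice (permutation p = 1.0, Spearman's rho -0.01), nor the mean of the 12 Kupffer markers (r = 0.045, permutation p = 0.769, adjusted p = 0.937, rho 0.15). That mean ran from 8.16 to 9.01 in HZ saline and from 8.88 to 9.43 in HZ VPA mice, and its part in the VPA difference was not tested.

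None of the 5 genes of the AP-1 family was called in any comparison. AP-1 is a dimer of a FOS and a JUN protein that binds the TGANTCA site, and FOS proteins bind DNA only together with a JUN partner. Fos, the classical early response gene, was 0.07 lower with VPA (SE 0.04, adjusted p = 0.253), and its values lay between 5.94 and 6.63 in all 48 mice, a 1.61-fold range. Fosb, its close relative, was 0.11 lower (SE 0.05, unadjusted p = 0.0159, adjusted p = 0.103) and was below the saline mean of its genotype in 19 of 24 VPA mice. In HZ mice the difference of Fosb was -0.18 (SE 0.08, adjusted p = 0.114), with 7 of 8 VPA mice below the saline mean.

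Of the JUN proteins, Jun differed by -0.07 with VPA (SE 0.10, adjusted p = 0.683), Junb, which often opposes JUN, by -0.06 (SE 0.06, adjusted p = 0.526) and Jund, the member made at a steady level in most cells, by -0.10 (SE 0.06, adjusted p = 0.309). Their 95% intervals of -0.26 to 0.12, -0.17 to 0.05 and -0.23 to 0.03 all end far below the 0.84 of Egr1. Without KO saline replicate 8 the difference of Jun was -0.03. Jun varied most among the 3, with a 3.37-fold range over all mice, from 7.21 in HZ saline replicate 7 to 8.96 in KO saline replicate 8. In KO against WT mice the 5 AP-1 genes differed by -0.04 (Jund) to 0.09 (Junb), with adjusted p from 0.647 to 0.983. Without KO saline replicate 8 those of Jun, Fos, Fosb and Jund, 0.02, 0.05, 0.03 and -0.04, were -0.04, 0.03, 0.01 and -0.07. HZ against WT mice gave -0.12 (Jun) to 0.05 (Junb), with adjusted p from 0.990 to 0.999.

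Atf3, a stress-induced relative of the AP-1 and CREB factors that represses many of its targets, had its highest group mean in KO saline mice, 7.21 ± 0.27, with a minimum, median and maximum of 6.89, 7.09 and 7.68. In WT saline mice these were 6.72, 6.95 and 7.27, and 3 of 8 KO mice lay above all of them. The difference of 0.22 missed the threshold (SE 0.09, unadjusted p = 0.0118, adjusted p = 0.297), with 7 of 8 KO mice above the WT mean. In KO mice the VPA group averaged 6.97 ± 0.21, and the difference of -0.23 against KO saline mice also missed it (SE 0.09, unadjusted p = 0.00916, adjusted p = 0.494), with 7 of 8 VPA mice below the saline mean. Without KO saline replicate 8 these differences were 0.16 (adjusted p = 0.599) and -0.17 (adjusted p = 0.790). Over both treatments Atf3 differed by 0.12 (KO minus WT, SE 0.06, adjusted p = 0.355), or by 0.09 without that mouse.

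Ier2, a short nuclear protein with a role in transcription, and Ier3, a regulator of survival under NF-kappaB signaling, were not called in any comparison. With VPA they differed by -0.05 (SE 0.06, adjusted p = 0.597) and -0.06 (SE 0.06, adjusted p = 0.481). In KO against WT mice the differences were 0.14 for Ier2 (SE 0.07, unadjusted p = 0.0471, adjusted p = 0.357) and 0.13 for Ier3 (SE 0.07, adjusted p = 0.403), with 10 of 16 KO mice above the WT mean for each. Within saline mice, Ier2 lay above the WT mean in 6 of 8 KO and in 8 of 8 HZ mice, with differences of 0.22 (adjusted p = 0.423) and 0.20 (adjusted p = 0.468). Ier3 also lay above it in 8 of 8 HZ saline mice, by 0.15 (adjusted p = 0.595). The HZ and WT ranges overlapped for both genes, since the highest WT saline mouse had 6.92 for Ier2 and 6.95 for Ier3 against the lowest HZ saline values of 6.78 and 6.48.

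**Figure D3:**
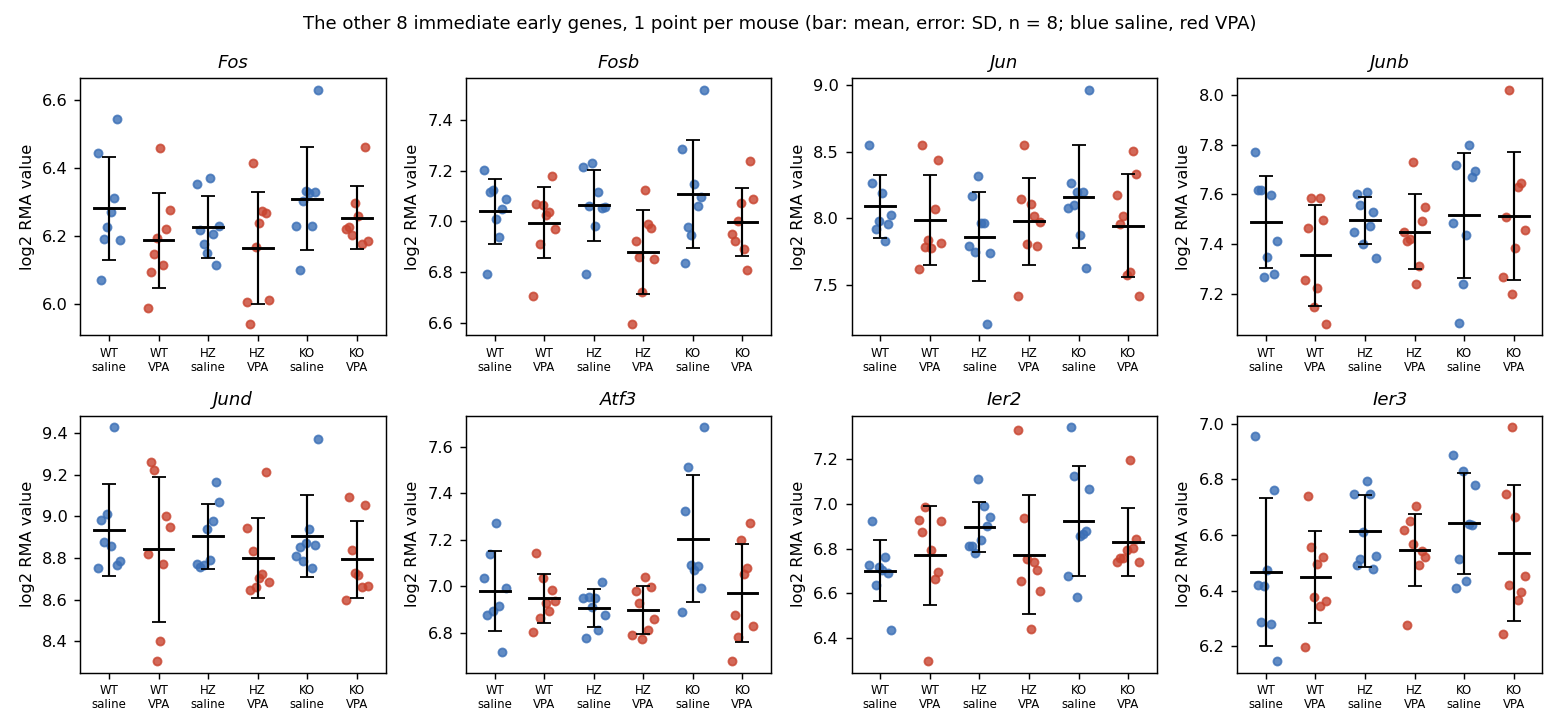
Log2 RMA values of the 8 genes other than Egr1 and Klf6, 1 point per mouse in each of the 6 groups, saline in blue and VPA in red, with the mean and 1 SD (n = 8), each panel on its own axis. Groups overlap in all 8 panels, and the topmost point for Fos, Fosb, Jun and Atf3 is the same KO saline mouse at 6.63, 7.52, 8.96 and 7.68.

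Klf6, on chromosome 13 (5861489 to 5870393), encodes a zinc finger factor of the Krüppel-like family known from wound repair, activated stellate cells and hepatocyte lipid and glucose metabolism. In saline mice its minimum, median and maximum were 7.35, 7.52 and 7.82 in WT, 7.23, 7.37 and 7.49 in HZ and 7.53, 7.66 and 8.16 in KO mice. In VPA mice they were 7.16, 7.52 and 7.76 in WT, 7.39, 7.64 and 7.79 in HZ and 7.56, 7.82 and 8.13 in KO mice. The KO mice sat highest under both treatments, and the lowest KO mouse lay above the WT mean each time, although the groups overlapped.

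Over both treatments Klf6 was 0.25 higher in KO than in WT mice (SE 0.06, 95% interval 0.12 to 0.37, limma adjusted p = 0.0162), with 16 of 16 KO mice higher than the WT mean for that treatment. Taken separately, the difference was 0.20 in saline (SE 0.09, adjusted p = 0.415) and 0.29 in VPA mice (SE 0.09, adjusted p = 0.164), with 8 of 8 KO mice above the WT mean in each. No member passed within saline, beside 0.79% of all probesets, or within VPA, beside 0.405%. Klf6 was among the members with an unadjusted p under 0.05 in both, 3 in saline (with Atf3 and Ier2) beside 9.25% of all probesets and 1 in VPA mice beside 7.91%. HZ mice differed from WT mice by -0.03 (SE 0.06, adjusted p = 0.999). The groups ran in the order HZ saline (7.37 ± 0.10), WT saline (7.52 ± 0.15), WT VPA (7.52 ± 0.21), HZ VPA (7.62 ± 0.15), KO saline (7.72 ± 0.22) and KO VPA (7.81 ± 0.19), with no neighbours further apart than the larger of their SDs.

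HZ mice showed a VPA difference of Klf6 that lay close to the threshold. It was 0.24 (SE 0.09, unadjusted p = 0.00811, adjusted p = 0.0634), with 8 of 8 VPA mice above the HZ saline mean. In WT mice it was 0.00 (SE 0.09, adjusted p = 0.999) and in KO mice 0.09 (SE 0.09, adjusted p = 0.901). The interaction of Klf6 had an adjusted p of 0.750, so the genotypes were not shown to differ. Over the 3 genotypes it was 0.11 (SE 0.05, unadjusted p = 0.0331, adjusted p = 0.152). Klf6 kept its call in KO against WT mice without any 1 of the 48 arrays (difference 0.22 to 0.27). It lost the call when the HZ arrays were left out of the fit, with the same difference of 0.25 and an adjusted p of 0.0526, and with the clock index as a covariate, with a difference of 0.26 and an adjusted p of 0.139. The 7 stellate cell markers, among them Col1a1 and Des, included none past the threshold in KO against WT mice, and their mean per mouse ran from 8.16 to 8.46 in WT and from 8.09 to 8.41 in KO saline mice.

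**Figure D4:**
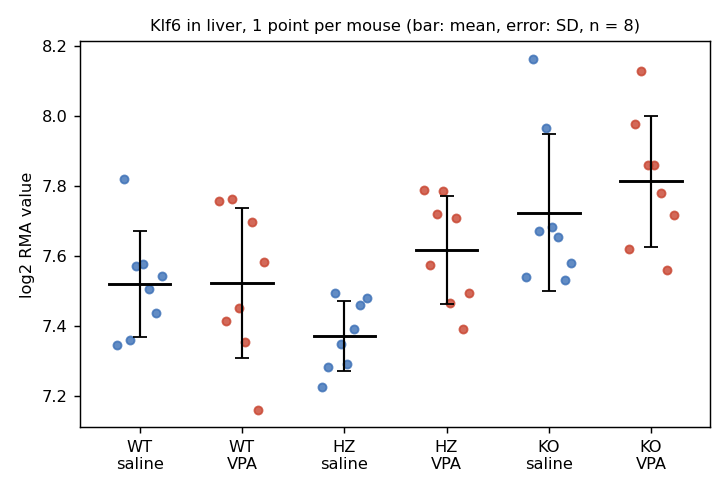
Klf6 log2 RMA value of each mouse, 1 point per mouse, saline in blue and VPA in red, with the mean and 1 SD (n = 8). All KO points lie above the WT mean of the same treatment (7.52 in both), and HZ saline is the lowest and tightest group at 7.37 ± 0.10.

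Taken as a group, the 10 genes had a median VPA difference of -0.07 against -0.02 over all probesets, with 8 negative and 2 positive. In KO against WT mice the median was 0.11 against 0.01, with 9 positive and 1 negative. Without KO saline replicate 8 Jun turned to -0.04, and Fos and Fosb were at 0.03 and 0.01. In HZ against WT mice the median was -0.03 against 0.01. The share of each direction over all probesets was not counted, so the counts of positive and negative differences are descriptions only. Of 43 other early response genes 42 were measured. This list, like the other lists, was chosen with earlier results of these data known. Its counts beside the share of all probesets are therefore descriptions and not tests of the list. With VPA 5 of the 42 passed, beside 8.61% of all probesets. Of these 1 was higher, Cited2, a binding partner of CBP and p300, by 0.24 (adjusted p = 0.00778), and 4 were lower. The lower ones were Trib1, a pseudokinase that controls C/EBP turnover, by -0.27 (adjusted p = 0.0154), the nuclear receptor Nr4a2 by -0.22 (adjusted p = 0.0402), the small MAF protein Maff by -0.20 (adjusted p = 0.00475) and Klf2, a relative of Klf6. Nr4a2 lost its call in 19 of 48 fits with 1 array left out (-0.18 and adjusted p = 0.0594 without KO saline replicate 8) and after median centring (adjusted p = 0.0663), where Klf2 lost it too (adjusted p = 0.0776). The median of the 42 was -0.07.

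In KO against WT mice 5 of the 42 were higher and none lower, beside 2.94% of all probesets in either direction, again as a description. Dusp6, the phosphatase that switches off ERK, was higher by 0.62 (adjusted p = 0.000147), Gadd45b and Gadd45a, which act in stress and DNA damage responses, by 0.58 (adjusted p = 0.0294) and 0.30 (adjusted p = 0.00138), and Zfp36, which destabilises cytokine mRNA and many early response mRNAs, by 0.51 (adjusted p = 0.0261). Socs3, the inhibitor of cytokine receptor signaling, was the fifth. Gadd45b lost its call without any 1 of 6 mice, KO VPA replicates 4, 5 and 7, KO saline replicates 4 and 5, and WT saline replicate 2 (difference 0.51 to 0.56, adjusted p = 0.0509 to 0.0655), with array weights (0.0544) and with only the groups compared (0.0745). Zfp36 lost it without KO saline replicate 4 or 8, WT VPA replicate 2 or KO VPA replicate 5 (difference 0.46 to 0.48, adjusted p = 0.0501 to 0.0566) and with only the groups compared (0.0678). Klf2 and Socs3 were named after their values were seen. With the clock index as a covariate 1 of the 42 was called, Gadd45a, and Dusp6 was at 0.45 (adjusted p = 0.102). In the main fit the median of the 42 was 0.08. In HZ against WT mice none of the 42 passed, as among the 10 members, beside 0.00281% of all probesets.

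Among the partners with which AP-1 proteins dimerise, 11 of 12 were measured. None passed in VPA against saline, KO against WT or HZ against WT mice, beside 8.61%, 2.94% and 0.00281% of all probesets. With VPA in HZ mice 3 of the 11 were lower, beside 10.5% of all probesets, and they were named after their values were seen. They were Batf2, a partner of JUN proteins in immune cells, at -0.29 (adjusted p = 0.00964), the small MAF protein Mafg at -0.27 (adjusted p = 0.00766) and Jdp2, a repressor that dimerises with JUN, at -0.23 (adjusted p = 0.0325). None of the 11 passed with VPA in WT or KO mice, beside 0.0703% and 0.0112% of all probesets. The interactions of Batf2, Mafg and Jdp2 had adjusted limma p of 0.522, 0.454 and 0.704, so the genotypes were not shown to differ. Jdp2 lost its call in 7 of 48 fits with 1 array left out, without HZ saline replicate 1, 5, 6 or 7 or HZ VPA replicate 1, 2 or 4 (difference -0.23 to -0.20), and after median centring (adjusted p = 0.0570). Of 30 genes of the kinase cascades and promoter-bound factors upstream, 22 were measured. With VPA 3 of the 22 passed, beside 8.61% of all probesets. The SRF coactivator Mrtfb and the ERK-activated kinase Rps6ka3 were higher, by 0.29 (adjusted p = 0.000145) and 0.26 (adjusted p = 0.0106), and Map2k6, which activates p38, was lower by -0.33 (adjusted p = 0.0332). Map2k6 lost this call without HZ VPA replicate 4 or KO VPA replicate 1 or 3 (difference -0.32 to -0.29, adjusted p = 0.0513 to 0.0558) and after median centring (adjusted p = 0.0578). Between KO and WT mice 2 of the 22 passed, beside 2.94% of all probesets: Map2k6 was higher by 0.60 (adjusted p = 0.00194) and the receptor gene Egfr lower, at -0.87 (adjusted p = 0.000769). Of 14 heat shock genes, another family that responds within minutes to stress, 11 were measured. With VPA 5 of the 11 passed, beside 8.61% of all probesets. Of these 4 were lower, Hspa8 at -0.26 (adjusted p = 1.88e-05), Bag3 at -0.24 (adjusted p = 0.0373), Hspa1a at -0.24 (adjusted p = 0.0328) and Dnajb1 at -0.21 (adjusted p = 0.0142), and Hspa5, the chaperone of the endoplasmic reticulum, was higher by 0.22 (adjusted p = 0.0164). Dnajb1 was named after its value was seen. Bag3 lost its call in 16 of 48 fits with 1 array left out (-0.22 without WT saline replicate 7) and after median centring (adjusted p = 0.0693). Hspa1a lost it without KO saline replicate 8, WT VPA replicate 1 or HZ VPA replicate 1 (difference -0.23 to -0.21, adjusted p = 0.0527 to 0.0557) and after centring (adjusted p = 0.0532). Between KO and WT mice 2 of the 11 passed, beside 2.94% of all probesets. Hspb1 and Hsp90aa1 were lower, at -0.95 (adjusted p = 0.00396) and -0.47 (adjusted p = 0.00551). With the clock index as a covariate all calls named for these partners, upstream genes and heat shock genes were lost except that of Egfr. Mrtfb was then at 0.04 (adjusted p = 0.944), Rps6ka3 at 0.22 (0.814), Hspa8 at -0.15 (0.809) and Batf2 at -0.33 (0.678). Mafg was at -0.35 (0.658), Hspb1 at -0.97 (0.0849) and Hsp90aa1 at -0.28 (0.428).

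Whether the 10 genes varied together from mouse to mouse was examined in the deviations from the group means, for all 45 pairs over 48 mice, with two-sided permutation tests within groups adjusted over the 45. Of the pairs 29 correlated positively and 16 negatively, with a median r of 0.109, and 5 passed an adjusted p of 0.05. Junb and Egr1 varied together (r = 0.506, permutation p = 0.00146, adjusted p = 0.0219, rho 0.444 with adjusted p = 0.052), with r positive in 6 of 6 groups and 0.403 without the 2 mice farthest from the median. Fos and Ier3 did so with r = 0.441 (permutation p = 0.00245, adjusted p = 0.0276, rho 0.432 with adjusted p = 0.0432), again positive in 6 of 6 groups and 0.447 without the 2 farthest mice. For Fos and Fosb, r was 0.493 (permutation p = 0.00118, adjusted p = 0.0219, rho 0.344 with adjusted p = 0.186), and without KO saline replicate 8 it was 0.390 (adjusted p = 0.0908), so this pair rests in part on that mouse. After median centring it was 0.399 (adjusted permutation p = 0.0798).

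Klf6 correlated negatively with both FOS genes. With Fosb its r was -0.607 (permutation p = 3e-05, adjusted p = 0.00135, rho -0.571 with adjusted p = 0.00585), negative in 5 of 6 groups, -0.591 without the 2 farthest mice and -0.614 without KO saline replicate 8. With Fos, r was -0.428 (permutation p = 0.0051, adjusted p = 0.0459, rho -0.365 with adjusted p = 0.147), -0.389 without the 2 farthest mice and -0.412 without KO saline replicate 8 (adjusted p = 0.0504). After median centring r was -0.578 with Fosb (adjusted permutation p = 0.0045) and -0.333 with Fos (adjusted permutation p = 0.151). The values of Fos, 5.94 to 6.63, lay below every array median (6.90 to 7.03). The medians of Ier3 (6.52) and Ier2 (6.79) over the 48 mice also lay below them, and that of Fosb (7.03) lay at their level. Whether a background shared by dim probesets enters these correlations was not tested. Fos and Egr1, which share many of the same activating signals, had an r of -0.019 (permutation p = 0.901, adjusted p = 0.921, rho -0.082). Jund and Ier2 passed by rank alone (rho 0.449, permutation p = 0.00198, adjusted p = 0.0432, r = 0.380 with adjusted p = 0.113). All correlations share the arrays and their normalization. Of 20 correlations of the 10 genes with the clock index or the Kupffer marker mean, none passed the adjusted p, with r from -0.366 to 0.252.

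**Figure D5:**
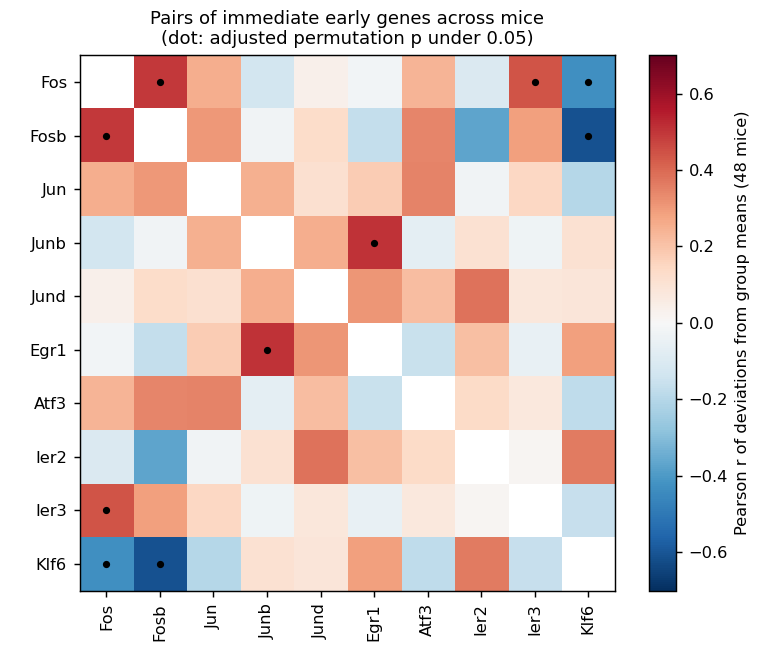
Pearson's r between each 2 of the 10 genes, computed from deviations from the group means over 48 mice, with red for positive and blue for negative values and a dot where the adjusted permutation p is under 0.05. The darkest cells are Junb with Egr1 at 0.506 and Fosb with Klf6 at -0.607, and most of the matrix is pale.

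Most like each member in its deviations over the 48 arrays were probesets outside the group, described here with no test among 21779 candidates that carry 1 symbol. Egr1 was closest to Mrnip (r = 0.616), Nhsl1 (0.613) and Slc8b1 (0.596), each above its r with Junb. Klf6 was closest to Il15 (r = 0.761), Zfp780b (0.735) and Pstk (0.734). Fos was closest to Mir25 (r = 0.735), Gm5600 (0.722) and Hpdl (0.721), and Fosb to Cdk5r2 (0.819), Cd164l2 (0.804) and Ghrl (0.792). For Junb the first was Gpr146 (r = 0.665), for Jun Arhgef16 (0.587), for Jund Cacna1a (0.608), for Ier2 Bcat2 (0.633) and for Ier3 Pde4a (0.705). Atf3 came closest to Neu3 (r = 0.602), and among its 3 nearest was Csrnp1 (0.549), itself on the list of other early response genes. No member had another of the 10 among its 3 closest probesets, since in each case the highest r with another member, 0.506 at most, was below that of the third.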

How the data were processed

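Liver RNA of 48 mice was hybridised to Affymetrix Mouse Gene 1.0 ST arrays, 1 array per mouse. Per the labels, the authors used RMA to process the arrays (Affymetrix Expression Console, version 1.1.2800.28061), and the deposited values are log2 expression per probeset after background correction and quantile normalization. RMA sets every array to 1 distribution, so a change shared by most genes would not be seen, and low values are compressed. Levels of different probesets are not comparable. For arrays, their number limits the precision.

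Groups were taken from the labels. Probesets were joined to symbols by identifier (21789 with 1 symbol, 1621 with several, 12146 with none), and positions are those of GRCm38.p6. In R 4.3.3, limma 3.58.1 was used to fit 1 mean per group over all 48 arrays (42 residual degrees of freedom), with contrasts for VPA, genotype and interaction, eBayes and Benjamini-Hochberg adjustment over 35556 probesets. This takes the two-way layout of the study. Where a list gene had several probesets, that of highest mean was used. Pairs of genes were tested by 100000 permutations of mice within groups, with numpy 2.4.6 in Python 3.11.15, and figures were drawn with matplotlib 3.10.9. The fits were tested on simulated data.

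The 10 genes and the lists were chosen with earlier results of these data known. Named were the 10 genes, at most 4 genes past the threshold with the largest difference per list and comparison, the 3 most similar probesets per member and Wfs1, and Klf2, Socs3, Dnajb1, Batf2, Mafg and Jdp2 besides. Some genes of the lists were not analysed here. Markers of endothelium (3 of 8 higher with VPA), neutrophils (1 higher and 1 lower of 8), stellate cells (1 higher of 7), lymphocytes (0 of 5) and hepatocytes (2 of 7 lower) were tested for VPA as well, and none of these lists or of the Kupffer markers had a gene past the threshold in KO against WT mice. Of the 4 measured clock genes of opposite phase, such as Arntl, 3 were higher with VPA over the 3 genotypes. Over both treatments 2 of the 4 were lower in KO than in WT mice. The shares of all probesets beside these lists were 8.61% with VPA and 2.94% in KO against WT mice. Alternatives were array weights, eBayes with trend and robust estimation, no moderation, median centring, only probesets with 1 symbol, only those with a group mean of at least 5 (30285), only the groups compared, a block for the replicate number, the clock index as a covariate, and each array left out in turn.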

Additional observations from a re-analysis of the deposited data

Results flagged for a closer look

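In 6 of 60 groups of 8 mice examined (10 genes by 6 groups), 1 mouse stood apart from the rest of its group by Dixon's criterion, where the gap to the nearest mouse is divided by the range of the group and 0.526 is the critical value. Chance alone marks about 1 in 20 groups, or 3 of 60.

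Fos was high in KO saline replicate 8, at 6.63 with the next mouse at 6.33, and in KO VPA replicate 7, at 6.46 with the next at 6.30. Jund was high in WT saline replicate 6, at 9.43 against 9.01, and in KO saline replicate 8, at 9.37 against 8.94. Ier2 was low in WT VPA replicate 4, at 6.30 against 6.67, and high in KO VPA replicate 5, at 7.20 against 6.84. KO saline replicate 8 thus stood apart in 2 genes. No mouse stood apart in Egr1, Klf6, Fosb, Jun, Junb, Atf3 or Ier3.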

How the results depend on the processing

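Under the alternatives the Egr1 and Klf6 differences kept their sign, and 533 of 580 values of single genes kept both direction and side of the threshold, while 34 lost their call, 4 gained one and 9 changed sign. With 1 array left out 3149 of 3216 did so. The clock index as a covariate changed most: it left 0 members called for VPA, 0 in KO against WT mice and 0 for VPA in HZ mice, and 0 and 1 of the other early response genes for VPA and for KO against WT. With it the SE of Egr1 went from 0.21 to 0.43, and the VPA difference changed sign in Fos (0.0237), Jun (0.0476), Jund (0.134), Atf3 (0.0607), Trib1 (0.169) and Map2k6 (0.0178), and that of KO against WT in Fos (-0.00686) and Jun (-0.0508). Jun also turned to -0.0258 with array weights. With only the groups compared, 0 members and 3 other early response genes were called in KO against WT mice. VPA in HZ mice called 2 members, Egr1 and Klf6, with array weights, with probesets of 1 symbol, with only the groups compared and with the replicate block, where Klf6 had adjusted p of 0.0235, 0.0497, 0.0282 and 0.0414. Leaving out arrays gave 1 to 2 members there, with 2 without KO saline replicate 2, HZ VPA replicate 5 or HZ VPA replicate 7. For other early response genes with VPA, main count 5, array weights gave 8, median centring 3 and leaving out arrays 4 to 8 (8 without WT saline replicate 2 or KO saline replicate 2), and in KO against WT mice leaving out arrays gave 3 to 6 (3 without KO saline replicate 4 or KO VPA replicate 5). Jun in KO against WT ran from -0.0408 (without KO saline replicate 8) to 0.0568 and Jund in HZ against WT from -0.0730 to 0.000623 with arrays left out. Of the gene pairs, 3 passed by Spearman's rho (Fosb with Klf6, Fos with Ier3, Jund with Ier2), 3 after median centring (Fosb with Klf6, Fos with Ier3, Junb with Egr1), 4 without KO saline replicate 8, an alternative chosen after seeing the data, and 10 with the replicate block. Whether the replicate numbers mark a factor shared across groups is not given by the labels and was not tested. Residuals of arrays with the same number correlated slightly more, by 0.055 on average against -0.008 for others. They correlated by over 0.1 in 53 of 120 pairs with the same number, and 11 of 48 arrays were closest to their own number. The replicate block changed no other count of members. The cause of these changes was not tested. The share of all probesets called under each alternative was not counted, so the counts of called genes cannot be set against it. No detection calls were given, so a limit from background cannot be set for the dim probesets.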
